A study of Mus musculus with 44 samples.

Results

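The progesterone receptor gene Pgr and 6 genes tied to progesterone signalling or to PGR in the ovulating follicle (Pgrmc1, Pgrmc2, Zbtb16, Nrip1, Snap25 and Prkg2) were followed in RNA sequencing of ovarian follicles from CD-1 mice, an outbred strain of genotype WT per the labels. The 7 genes were chosen by symbol, with earlier results of these data known, from 24220 symbols in the 2 gene tables of the study. Each had 1 row in both tables. In the ovulation window, 12 control libraries came from follicles given hCG (human chorionic gonadotropin, a stand-in for the luteinizing hormone surge) and 11 from follicles given hCG together with PFNA (perfluorononanoic acid, a perfluoroalkyl substance). In the maturation window, 11 control libraries came from follicles given DMSO, the solvent, and 10 from follicles given PFNA. The labels give no dose, time, animal age or batch, and whether a library is 1 follicle, a pool or 1 animal is not given in the sources used here, so the p-values below measure only the spread between these libraries.

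PGR is a nuclear receptor that binds progesterone and switches on transcription. In mural granulosa cells of the preovulatory follicle it appears briefly after the luteinizing hormone surge, and mice without it grow follicles but fail to release the oocyte. PGRMC1 and PGRMC2 are heme-binding membrane proteins of another family, linked to non-nuclear progesterone responses, while NRIP1 (RIP140) is a nuclear receptor co-repressor that mice also need for ovulation. ZBTB16 (PLZF, a zinc-finger repressor), SNAP25 (a SNARE protein of regulated secretion) and PRKG2 (the type II cyclic GMP-dependent protein kinase) are encoded by genes described as dependent on PGR in periovulatory granulosa cells.

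The genes lie on 6 chromosomes. On GRCm38 with the GENCODE M21 annotation, Pgr spans chr9:8899833-8968611 (+), Pgrmc1 chrX:36598206-36606079 (+), Pgrmc2 chr3:41066326-41083046 (-), Zbtb16 chr9:48654297-48836222 (-), Nrip1 chr16:76287400-76373827 (-), Snap25 chr2:136713453-136782428 (+) and Prkg2 chr5:98929773-99037351 (-). Snap25 and Prkg2 each hold 1 processed pseudogene on the other strand, Gm14053 and Gm3470, without overlap of exons, and the other 5 overlap no annotated gene.

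Upstream sequence is shown for the 3 receptor genes, because Pgr and Pgrmc1 varied together between libraries of an ovulation group although they moved in opposite directions with PFNA. Among PFNA libraries that relation passed by Pearson correlation but not by rank. Pgrmc2 did not pass a test of correlation with Pgr. The 250 bases before the gene start (RefSeq, GRCm38.p6, written 5' to 3' on the gene's strand) are chr9:8899583-8899832 for Pgr, chrX:36597943-36598192 for Pgrmc1 and chr3:41083047-41083296 for Pgrmc2. Capitals mark matches on either strand to the GC box letters GGGCGG and to the CCAAT box letters CCAAT.
Pgr: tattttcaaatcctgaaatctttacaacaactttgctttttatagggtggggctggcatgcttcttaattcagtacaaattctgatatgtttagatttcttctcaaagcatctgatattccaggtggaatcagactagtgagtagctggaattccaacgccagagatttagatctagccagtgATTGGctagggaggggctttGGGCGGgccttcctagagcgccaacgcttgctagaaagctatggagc
Pgrmc1: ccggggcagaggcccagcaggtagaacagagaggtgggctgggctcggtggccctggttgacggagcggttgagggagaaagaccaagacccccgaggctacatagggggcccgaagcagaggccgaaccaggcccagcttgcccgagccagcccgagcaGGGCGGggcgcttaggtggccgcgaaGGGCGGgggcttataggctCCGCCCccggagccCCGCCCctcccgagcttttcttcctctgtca
Pgrmc2: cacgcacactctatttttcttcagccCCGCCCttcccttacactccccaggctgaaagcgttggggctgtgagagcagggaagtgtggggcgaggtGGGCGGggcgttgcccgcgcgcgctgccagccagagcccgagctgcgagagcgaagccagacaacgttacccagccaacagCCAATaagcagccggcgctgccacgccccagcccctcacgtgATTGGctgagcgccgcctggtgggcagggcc

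These windows differ in composition. The Pgr window had 43.6% G and C, below the median of 52.4% over all 32851 RefSeq promoter windows of that length, while those of Pgrmc1 and Pgrmc2 had 69.6% and 67.2%. Pgr had 1 GC box, 47 to 42 bases before the start, and 1 CCAAT box on the reverse strand, 67 to 63 bases before it. Pgrmc1 had 4 GC boxes and 0 CCAAT boxes, and Pgrmc2 had 2 of each. A GC box was found in 32.7% of all windows and a CCAAT box in 33.8%. The letters AGAACA of the progesterone response element matched once, in the Pgrmc1 window 228 to 223 bases before the start, and occur in 16.1% of all windows. The cyclic AMP response element TGACGTCA, the AP-1 site TGANTCA and the RUNX site TGTGGT, searched on both strands, matched in none of the 3 windows. The shorter TGACG, part of the cyclic AMP response element, matched in the Pgrmc1 window 192 to 188 bases before the start (17.8% of all windows), and TATAAA on the reverse strand of the Pgr window 212 to 207 bases before the start (12.4%). Matches of letters are a description and not evidence of binding. Of the 7 genes, 4 had an entry in the promoter table, the fourth being Nrip1.

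Each ovulation library held between 10600900 and 19511500 counts. For the maturation table, which holds TPM (transcript abundances corrected for length that sum to 1000000 in each library), the number of reads is unknown. The ovulation groups separated on the first principal component (62.0% of the variance). In the maturation window, where that component held 28.6%, PFNA replicates 1 and 2 lay among the controls (scores -18.1 and -10.6, controls -37.7 to -7.60, other PFNA libraries 33.4 to 48.8), so results of that window are also given without them where it matters. All 10 granulosa markers were measured in both windows, and none was at 0 throughout. Their summed level was 11524 to 18242 CPM (counts per 1000000, TMM-normalised) in ovulation controls and 9291 to 14493 CPM with PFNA, against 34354 to 54651 and 14881 to 41033 TPM in the maturation window. Inha and Inhba made up most of the ovulation sum (means of 7352 and 6698 CPM in controls), and Inha most of the maturation sum (34970 TPM). The sums therefore do not show the other markers, and 6 of the 10 were called higher with PFNA in the ovulation window. In these bulk samples, fewer cells of a type and less RNA per cell cannot be told apart.

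The ovulation comparison asked what PFNA changed after the hCG stimulus. All 7 genes passed the filter on low counts and all 7 were called (edgeR quasi-likelihood test, Benjamini-Hochberg adjusted p under 0.05 over 13441 genes). Zbtb16 and Snap25 passed that filter only through the controls, since PFNA libraries fell to 1 and 6 counts of them. Pgr, Prkg2, Snap25, Zbtb16 and Pgrmc2 were lower with PFNA, and Pgrmc1 and Nrip1 were higher. Calls were frequent in this window, with 73.2% of all genes called, 38% higher and 35.2% lower, so a call in itself does not set these genes apart. The sizes differed. Of the 4736 genes called lower, Pgr ranked 45th by size, Prkg2 141st, Snap25 160th, Zbtb16 218th and Pgrmc2 3356th. Among the 5101 called higher, Nrip1 and Pgrmc1 ranked 3014th and 3026th. The 7 genes were chosen with earlier results of these data known, so these ranks are a description and not a test.

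**Figure D1:**
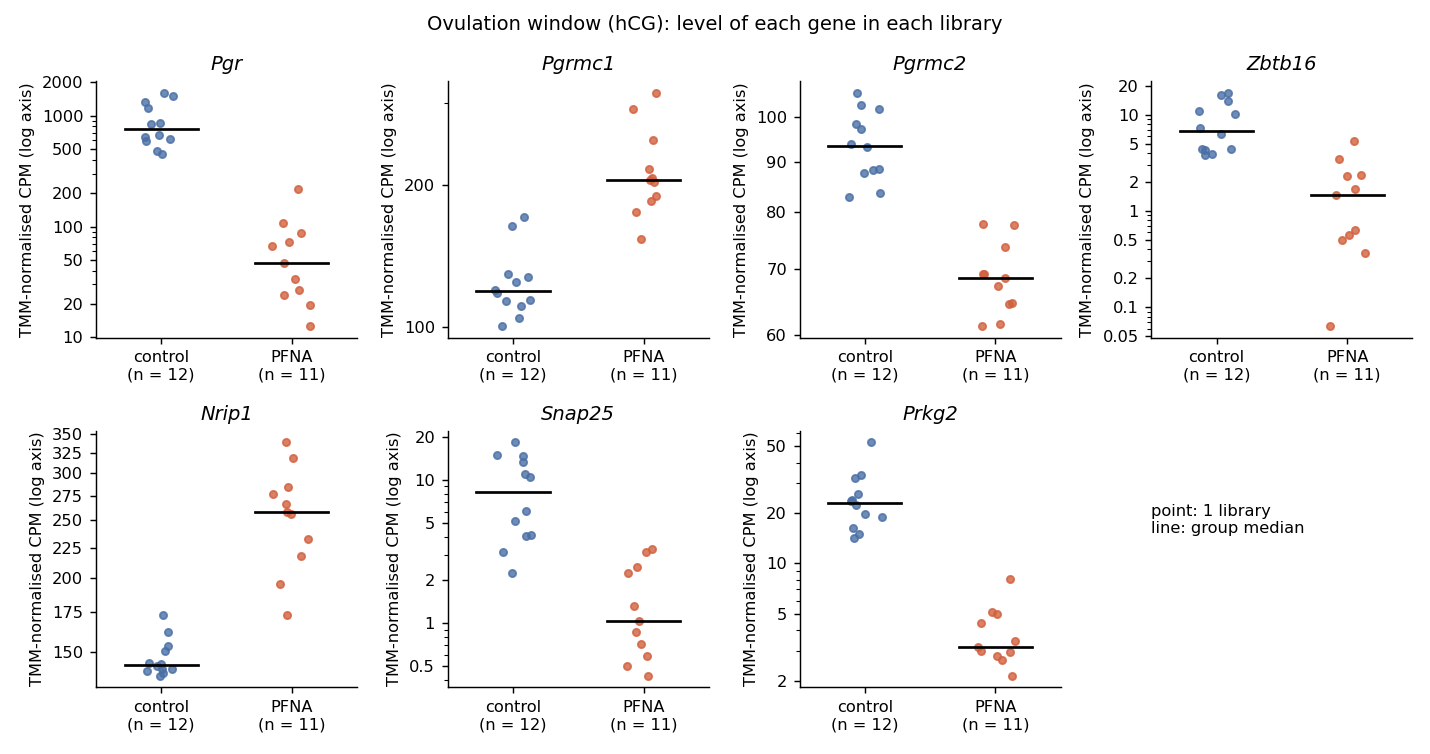
Level of the 7 genes in the ovulation window in CPM (TMM-normalised, log axis), with each point 1 library and the line the group median of 12 control or 11 PFNA libraries. Pgr, Prkg2 and Pgrmc2 separate all PFNA libraries below all controls, as do 14.1% of all genes tested. The medians of Pgrmc1 and Nrip1 are higher with PFNA.

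Pgr, the nuclear receptor itself, showed the largest change. In controls its level ranged from 450 CPM (replicate 12) through a median of 761 to 1611 CPM (replicate 4). With PFNA it ranged from 12.7 CPM (replicate 4) through a median of 46.6 to 219 CPM (replicate 6), and the next highest library, replicate 5, had 109 CPM. All 11 PFNA libraries lay below the lowest control, as was so in the downward direction for 14.1% of all genes tested. Group means were 899 ± 405 CPM (SD, n = 12) and 65.3 ± 59.5 CPM (SD, n = 11), so that PFNA libraries held 7.27% of the control level (log2 change -3.78, SE 0.42, adjusted p = 1.9e-08 by edgeR). Detection was not limited by depth, since the PFNA libraries still had 206 to 2991 counts of Pgr. Spread relative to the mean was wider with PFNA, with a coefficient of variation of 91.2% against 45.1% in controls.

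The membrane-associated pair went in opposite directions. Pgrmc1 had 101 to 171 CPM in controls (median 119) and 154 to 315 CPM with PFNA (median 205), and 10 of 11 PFNA libraries exceeded every control, replicate 10 being the exception. The group means were 125 ± 21.7 and 217 ± 48.8 CPM, a rise of 0.80 on the log2 scale (SE 0.11, adjusted p = 3.7e-07 by edgeR). Pgrmc2 had 82.9 to 106 CPM in controls (median 93.5) and 61.3 to 77.8 CPM with PFNA (median 68.6). Without overlap it lay below controls, as did 14.1% of all genes tested. Its mean fell from 93.7 ± 7.62 to 68.7 ± 5.74 CPM (log2 change -0.45, SE 0.055, adjusted p = 7.1e-08 by edgeR), a small change next to that of Pgr but larger than the spread of either group.

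Nrip1, the co-repressor, rose. Controls were narrow, from 137 to 173 CPM with a median of 142, while PFNA libraries ran from 173 CPM (replicate 5, just under the highest control) through a median of 258 to 338 CPM (replicate 10). The mean went from 147 ± 11 to 256 ± 49.7 CPM (log2 change 0.80, SE 0.086, adjusted p = 6.7e-09 by edgeR), with 10 of 11 PFNA libraries above every control. A position above every control in all libraries was reached by 11.9% of all genes tested, and by neither Nrip1 nor Pgrmc1.

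The 3 genes described as PGR-dependent were all lower, at levels far under that of Pgr. Prkg2 had 14.1 to 52.8 CPM in controls (median 23) and 2.14 to 8.12 CPM with PFNA (median 3.16). It too lay below controls without overlap, as did 14.1% of all genes tested. Its mean fell from 24.9 ± 10.8 to 3.90 ± 1.71 CPM (log2 change -2.67, SE 0.24, adjusted p = 2.6e-10 by edgeR). The highest PFNA library was replicate 6, which was also highest for Pgr, and the highest control was replicate 4 for both genes.

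Snap25 ranged from 2.25 to 18.2 CPM in controls (median 8.21) and from 0.429 to 3.27 CPM with PFNA (median 1.03). The groups overlapped, with 7 of 11 PFNA libraries below every control. Its mean fell from 8.93 ± 5.47 to 1.51 ± 1.08 CPM (log2 change -2.53, SE 0.41, adjusted p = 5.1e-06 by edgeR), and PFNA libraries held 6 to 64 counts. Zbtb16 ranged from 3.81 to 16.9 CPM in controls (median 6.78) and from 0.0641 CPM, a single count in replicate 9, to 5.32 CPM in replicate 10 with PFNA (median 1.46). Its mean fell from 8.53 ± 4.92 to 1.71 ± 1.60 CPM (log2 change -2.29, SE 0.46, adjusted p = 9.0e-05 by edgeR), and 10 of 11 PFNA libraries were under the lowest control. Of the members, this pair had the lowest counts, and the SE of their changes was among the 3 widest together with that of Pgr.

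Of the 10 granulosa markers, 6 were called higher and 3 lower in the ovulation window (38% and 35.2% over all genes), and markers of other cell types moved too. Leukocyte markers summed to 1.94 to 98.5 CPM in controls (median 24.8) and 156 to 710 CPM with PFNA (median 335), mostly through Cd3e, which went from 0.192 ± 0.179 to 275 ± 143 CPM while Ptprc, the pan-leukocyte marker, stood at 1.09 and 2.16 CPM. Of the 6 leukocyte markers tested, 2 were called higher, near the share of 38% over all genes. Theca or stroma markers summed to 183 to 1217 CPM in controls and 878 to 2122 CPM with PFNA, endothelial markers to 37.7 to 120 and 39.7 to 337 CPM, and oocyte markers to 82.3 to 406 and 8.14 to 479 CPM. Called higher were 7 of 10 theca or stroma, 5 of 6 endothelial and 4 of 10 oocyte markers, against 38% over all genes. Called lower were 1 theca or stroma marker and 0 of the endothelial and oocyte markers, against 35.2%. The part of these shifts in the 7 genes' changes was not tested.

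Divided by the exon length of each gene, levels can be ordered within a group. In ovulation controls Pgr was highest at 105 ± 47.4 CPM per kb of exon (n = 12, SD), but its range of 52.6 to 189 enclosed that of Pgrmc1, 54.1 to 92.1 (mean 67.2 ± 11.7). Pgrmc2 followed at 28.9 ± 2.35 and Nrip1 at 12.8 ± 0.959 CPM per kb, each apart from its neighbours. Prkg2 at 4.64 ± 2.01, Zbtb16 at 1.61 ± 0.932 and Snap25 at 1.31 ± 0.805 CPM per kb closed the order, and the ranges of these 3 overlapped. With PFNA the order changed. Pgrmc1 was highest at 117 ± 26.3 CPM per kb (n = 11, SD), apart from all others. Nrip1 at 22.4 ± 4.34, Pgrmc2 at 21.2 ± 1.77 and Pgr at 7.64 ± 6.97 CPM per kb overlapped in range, and Prkg2, Zbtb16 and Snap25 stood at 0.726 ± 0.318, 0.323 ± 0.302 and 0.222 ± 0.159.

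In the maturation window, whose labels name no hCG, the same comparison asked what PFNA changed in maturing follicles. Only 3 of the 7 genes reached the mean of 1 TPM needed for the test. Pgrmc1 and Nrip1 were higher with PFNA and Pgrmc2 was not called (limma on log2(TPM + 1), Benjamini-Hochberg over 13712 genes), where 29.4% of all genes were called, 13.3% higher and 16.1% lower. The other 4, Pgr, Zbtb16, Snap25 and Prkg2, were near 0 in both groups.

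**Figure D2:**
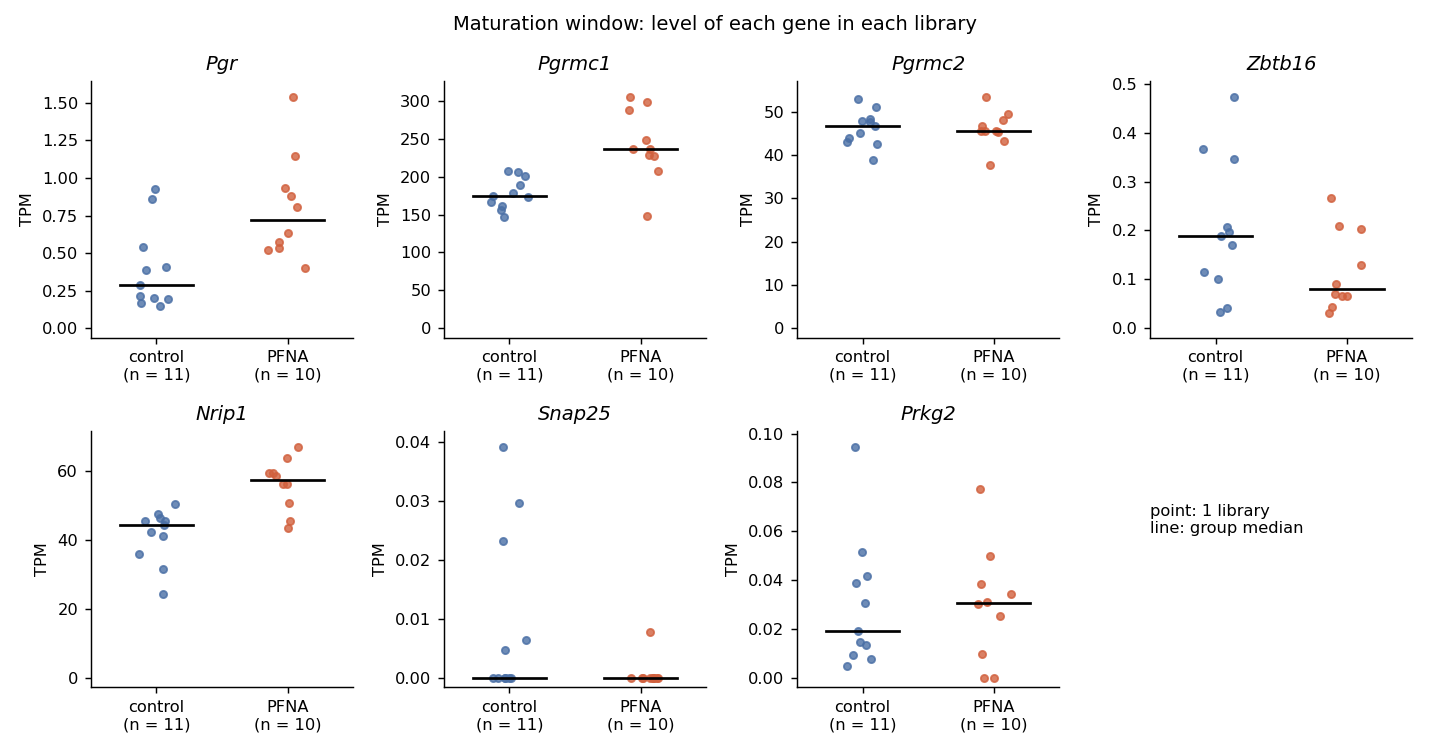
Level of the 7 genes in the maturation window in TPM (linear axes that differ between panels), with each point 1 library and the line the group median of 11 control or 10 PFNA libraries. Pgrmc1 and Nrip1 are higher in most PFNA libraries, 8 of 10 PFNA libraries lie within the control range of Pgrmc2, and Pgr, Zbtb16, Snap25 and Prkg2 lie at or under 1.54 TPM.

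Pgrmc1 had 146 to 207 TPM in controls (median 175) and 147 to 304 TPM with PFNA (median 236), with replicate 1 the lowest and 8 of 10 PFNA libraries above every control. All 10 PFNA libraries lay above every control for 0.489% of the genes tested in this window, a position reached by neither Pgrmc1 nor Nrip1. The share of genes with 8 of 10 above was not counted. The group means of Pgrmc1 were 178 ± 20.5 TPM (SD, n = 11) and 242 ± 47.0 TPM (SD, n = 10), a rise of 0.42 on the log2(TPM + 1) scale (SE 0.10, adjusted p = 0.0038 by limma). Nrip1 had 24.4 to 50.5 TPM in controls (median 44.4) and 43.6 to 67.0 TPM with PFNA (median 57.5), again with 8 of 10 above every control and replicates 1 and 2 the lowest. The mean went from 41.4 ± 7.78 to 56.1 ± 7.50 TPM (log2 change 0.44, SE 0.11, adjusted p = 0.0043 by limma). Pgrmc2 stood at 46.2 ± 4.04 TPM in controls and 46.1 ± 4.07 TPM with PFNA (log2 change -0.0036, SE 0.058, adjusted p = 0.97 by limma).

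Pgr was detected in every maturation library but at low level. Controls ran from 0.149 to 0.924 TPM (median 0.289) and PFNA libraries from 0.398 to 1.54 TPM (median 0.720), with 3 of 10 above every control. The means were 0.395 ± 0.274 (SD, n = 11) and 0.796 ± 0.345 TPM (SD, n = 10), a difference of 0.37 on the log2(TPM + 1) scale. With no filter on low values limma called this difference higher with PFNA (SE 0.12, adjusted p = 0.032), in the direction opposite to that of the ovulation window. Zbtb16 had 0.204 ± 0.139 and 0.118 ± 0.0812 TPM, and Prkg2 0.0298 ± 0.0265 and 0.0297 ± 0.0235 TPM. Snap25 was listed at 0 in 6 of 11 controls and in 9 of 10 PFNA libraries, with a highest value of 0.0392 TPM in controls and 0.00781 TPM with PFNA. Without the filter none of these last 3 was called (limma adjusted p = 0.26, 0.999 and 0.40 for Zbtb16, Prkg2 and Snap25).

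Granulosa markers moved in this window as well, with 5 of 10 called lower, where 16.1% of all genes were. All 10 oocyte markers were called lower, their sum being 134 to 214 TPM in controls and 0.268 to 366 TPM with PFNA (median 2.01). Leukocyte, theca or stroma and endothelial sums overlapped between groups. What part these shifts have in the values of Pgrmc1 and Nrip1 was not tested.

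The PFNA effect itself was compared between windows for the 3 genes tested in both (ovulation effect on log2(CPM + 1) minus maturation effect on log2(TPM + 1), limma within each table, adjusted over 11215 genes, of which 67.7% were called, 32% with a higher effect in the ovulation window and 35.6% with a lower one). For Pgrmc2 the difference was -0.44 (SE 0.080, adjusted p = 5.7e-06). Pgrmc1 and Nrip1 rose in both windows and by more in the ovulation window, with differences of 0.36 (SE 0.15, adjusted p = 0.028) and 0.33 (SE 0.14, adjusted p = 0.032). These last 2 calls rested on maturation PFNA replicates 1 and 2, the libraries that lay among the controls. Without both, the differences were 0.25 for Pgrmc1 (adjusted p = 0.090) and 0.25 for Nrip1 (adjusted p = 0.10), because the maturation effects rose to 0.53 and 0.52, whereas Pgrmc2 kept its call (-0.40). The windows were deposited as separate tables, so a difference between tables cannot be told apart from the window.

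**Figure D3:**
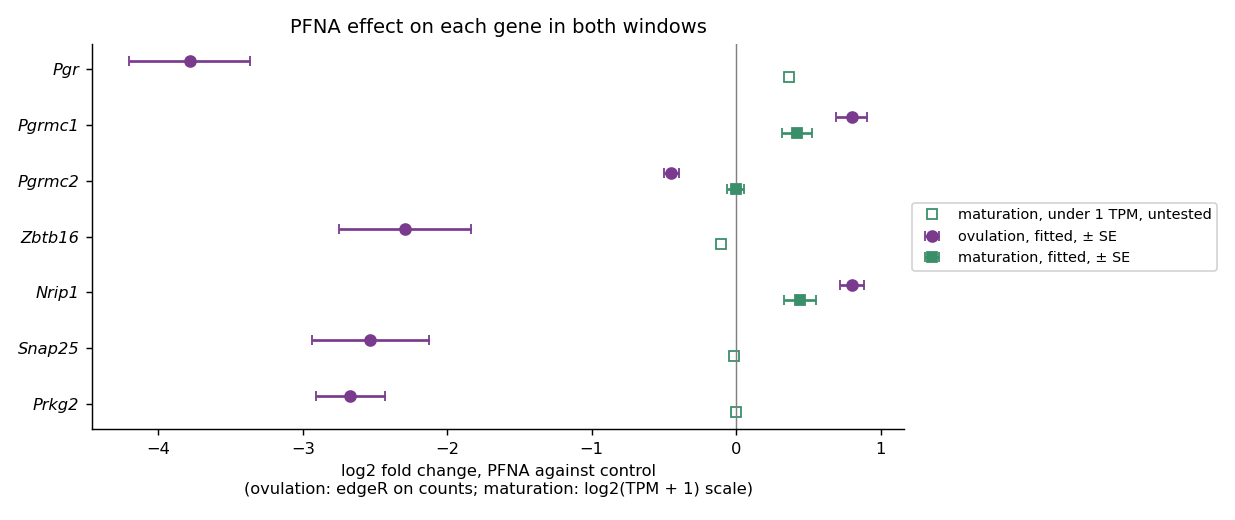
PFNA effect on each gene as a log2 fold change, with circles for the ovulation window (edgeR), squares for the maturation window (log2(TPM + 1) scale), bars for ± SE and open squares for genes under 1 TPM that were not tested. Pgr at -3.78, Prkg2 at -2.67, Snap25 at -2.53 and Zbtb16 at -2.29 fall in the ovulation window, and Pgrmc1 and Nrip1 lie above 0 in both.

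Libraries of a group differed in Pgr, which allowed the other members to be compared with it within each ovulation group (12 relations, log2(CPM + 1), two-sided permutation p adjusted over the 12). In the 12 controls, libraries with more Pgr had more Prkg2 (r = 0.84, adjusted p = 0.0034; rho = 0.80, adjusted p = 0.020), more Pgrmc1 (r = 0.80, adjusted p = 0.0079; rho = 0.79, adjusted p = 0.020) and more Snap25 (r = 0.74, adjusted p = 0.026; rho = 0.71, adjusted p = 0.046). Without replicates 3 and 4, the libraries farthest from the median of Pgr, these r were 0.73, 0.82 and 0.68. Zbtb16 passed by r (0.69, permutation adjusted p = 0.039) but not by rho (0.61, adjusted p = 0.098). Nrip1 (r = 0.41, permutation adjusted p = 0.38) and Pgrmc2 (r = 0.00066, adjusted p = 0.998) did not pass. The share of all genes that follow Pgr this closely in the controls was not counted. By deviations from the group mean over both groups, Pgrmc1 ranked 157th and Prkg2 1199th of 9017 genes.

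In the 11 PFNA libraries Pgrmc1 passed by r (0.76, permutation adjusted p = 0.025, and 0.77 without replicates 4 and 6) but not by rho (0.67, adjusted p = 0.083). The remaining 5 did not pass, with r of 0.39 for Prkg2, 0.052 for Zbtb16, -0.10 for Pgrmc2, -0.19 for Snap25 and -0.29 for Nrip1 (permutation adjusted p from 0.41 to 0.96). Pgrmc1 was thus higher where Pgr was higher within the controls by r and rho, and with PFNA by r alone. Between groups, Pgrmc1 rose and Pgr fell. Whether the relations differ between the groups was not tested, and the range of Snap25 and Zbtb16 counts with PFNA reached down to 6 and 1.

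Genes whose libraries followed Pgr most closely were sought among 9017 genes with a mean of at least 10 CPM, by the correlation of deviations from the group mean over the 23 ovulation libraries. These points share libraries and depth, and the values are a description. The 5 closest were Lrrn3, a leucine-rich repeat membrane protein (r = 0.974, rho = 0.967), Sult1e1, the estrogen sulfotransferase (r = 0.957), the EGF-like ligand Ereg (r = 0.941), Lhcgr, the receptor for luteinizing hormone and hCG (r = 0.924), and Mrap, a melanocortin receptor accessory protein (r = 0.923). Without PFNA replicates 4 and 6 their r ranged from 0.862 to 0.965, and within the 11 PFNA libraries alone from 0.933 to 0.985. Pgrmc1 ranked 157th and Prkg2 1199th on the same measure, and Pgrmc2 and Nrip1 ranked 5040th and 5792nd.

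Between groups, 4 of these 5 genes fell as Pgr did. Lrrn3 went from 203 ± 88.3 to 15 ± 16.1 CPM (log2 fold change -3.77), and the log2 fold changes of Sult1e1, Ereg and Mrap were -4.84, -3.68 and -2.35, each with all 11 PFNA libraries below every control. That position was reached by 14.1% of all genes tested. Lhcgr went the other way, from 54.3 ± 27.3 to 189 ± 216 CPM (log2 fold change 1.80, edgeR adjusted p = 0.00053), with 5 of 11 PFNA libraries above every control. The PFNA library with most Pgr, replicate 6, also had most Lhcgr (779 CPM).

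**Figure D4:**
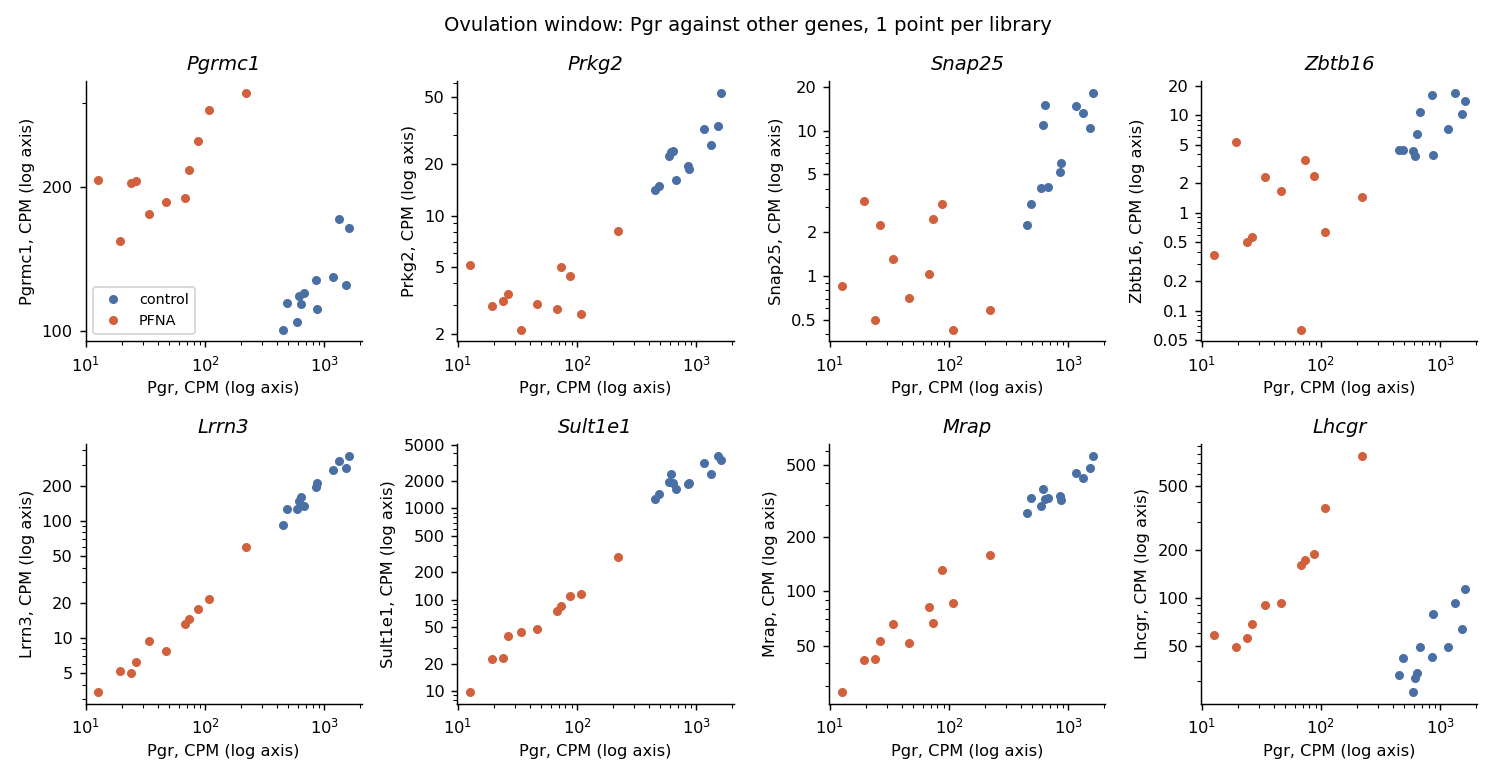
Level of 8 genes against that of Pgr in the ovulation window, both in CPM on log axes, with each point 1 library (blue control, orange PFNA). Lrrn3, Sult1e1 and Mrap rise with Pgr within each group and fall with it between groups, whereas Pgrmc1 and Lhcgr rise with Pgr within groups but stand higher with PFNA. Among PFNA libraries the Pgrmc1 relation passed by r but not by rho.

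The wider set of genes described as dependent on PGR in ovulation was mixed in the ovulation window. This list and those below were chosen with earlier results of these data known, so their counts are a description and not a test. Of 12 tested, 7 were called lower and 3 higher, where 35.2% and 38% of all genes were, with a median log2 fold change of -0.76 against 0.04 over all genes. Adcyap1, the neuropeptide PACAP, fell from 250 ± 161 to 10.3 ± 11.2 CPM (log2 fold change -4.62), and the cytokine Il6 from 108 ± 49.7 to 5.75 ± 3.27 CPM (-4.22). The EGF-like ligands Ereg and Areg fell by 3.68 and 2.36 on the log2 scale, and the chemokine receptor Cxcr4 by 2.45. For the proteases Adamts1 and Ctsl, which act on the follicle wall, the log2 fold changes were -0.79 and -0.73 (edgeR adjusted p = 1.5e-05 and 9.6e-05). Higher were Epas1 (HIF2A, a hypoxia-inducible factor, from 63.7 ± 11.9 to 261 ± 76.1 CPM, log2 fold change 2.03), its relative Hif1a (0.41) and Edn2, the endothelin that contracts the follicle (0.97, edgeR adjusted p = 0.028). The Edn2 call was lost without PFNA replicate 5 (0.85, adjusted p = 0.055) or 6 (0.78, adjusted p = 0.070). Pparg (-0.17) and Arnt were not called (edgeR adjusted p = 0.40 and 0.38).

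In the maturation window 9 of these 12 genes were tested, and 3 were called higher and 3 lower, where 13.3% and 16.1% of all genes were (median log2 fold change 0.12, against 0.02 over all genes). Ereg rose from 1.48 ± 0.760 to 3.23 ± 1.57 TPM (log2 fold change 0.73, limma adjusted p = 0.015), Areg from 0.953 ± 0.508 to 2.76 ± 2.07 TPM (0.77, adjusted p = 0.048) and Epas1 from 20.4 ± 5.09 to 27.7 ± 4.13 TPM (0.45, adjusted p = 0.0079). The Ereg and Epas1 calls were not made with replicate number, which did not pair the libraries, as a block. Pparg (-1.02, limma adjusted p = 3.2e-05), Adamts1 (-0.66, adjusted p = 0.011) and Hif1a (-0.32, adjusted p = 0.028) were lower, and Ctsl, Cxcr4 and Arnt were not called (adjusted p = 0.46, 0.77 and 0.94). The Areg call was lost without any of 14 libraries (control replicates 1, 2, 3, 6, 7, 8, 9 or 11, PFNA replicates 2, 3, 4, 5, 6 or 9, values 0.64 to 0.80, adjusted p 0.051 to 0.093). Areg also lost the call with no filter on low values (limma adjusted p = 0.066), with a pseudocount of 0.1 (adjusted p = 0.18), with replicate number as a block (adjusted p = 0.17) and without PFNA replicates 1 and 2 together (adjusted p = 0.071). Its control mean was under 1 TPM, so that it was tested only through the PFNA group. The Hif1a call was lost without PFNA replicate 7, 8, 9 or 10 (-0.29 in each, adjusted p 0.052 to 0.054). Il6, Edn2 and Adcyap1 fell under the filter on low values.

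**Figure D5:**
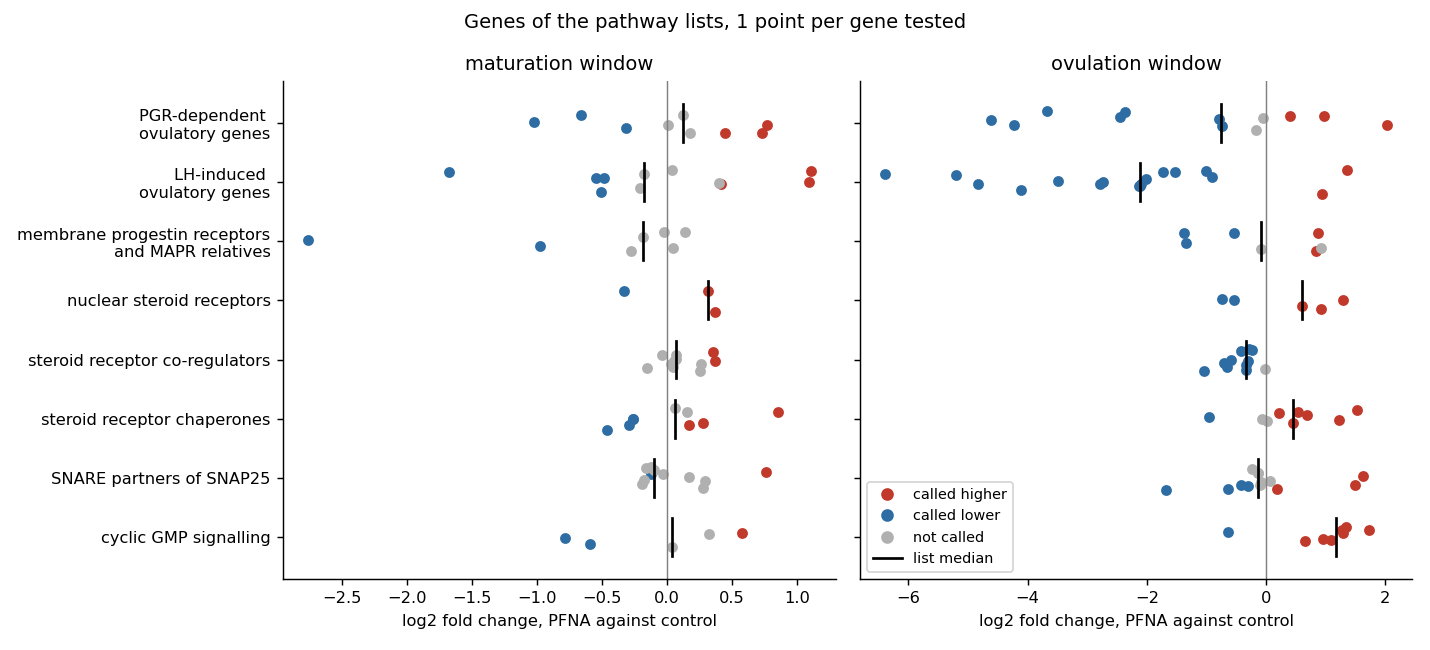
PFNA effect on the genes of 8 pathway lists as log2 fold changes, maturation window left and ovulation window right (axes differ), with each point 1 gene tested, red called higher, blue called lower, grey not called and the black line the list median. In the ovulation window the list of genes induced by luteinizing hormone has its median at -2.12 and cyclic GMP signalling genes at 1.18.

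Genes induced by the luteinizing hormone surge, the wider programme to which Pgr belongs, were lower in the ovulation window in 15 of 17 cases and higher in 2 (35.2% and 38% over all genes, median log2 fold change -2.12). The list was chosen with earlier results known, so these counts are not a test. Ptgs2, the prostaglandin synthase, fell by 5.21 and the transcription factor Runx1 by 3.49 on the log2 scale. Nr5a2, a nuclear receptor of granulosa cells, rose by 1.35 and the immediate-early factor Egr1 by 0.94. Of 11 tested in the maturation window, 3 were higher and 4 lower (median -0.18), where 13.3% and 16.1% of all genes were. Among them were the MAPK phosphatase Dusp6 at 1.09, Egr1 at 1.10, the matrix proteoglycan Vcan at -1.68 and Nr5a2 at -0.51. The Egr1 call of that window was lost without control replicate 3, 5, 6 or 7 or PFNA replicate 4, 5 or 6 (values 0.92 to 1.05, limma adjusted p 0.051 to 0.058).

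A further list held membrane progestin receptors, relatives of PGRMC1 and the PGRMC1-binding protein Serbp1. Among its 7 genes tested in each window, the number called was near the share over all genes (5 in the ovulation window, against 73.2%, and 2 in the maturation window, against 29.4%). In the ovulation window Nenf (0.83) and Cyb5d2 (0.86), which like PGRMC1 carry a cytochrome b5-like domain, were higher and 3 were lower. Paqr7, a membrane progestin receptor, fell from 112 ± 13.6 to 43.2 ± 11 CPM (log2 fold change -1.38) and Serbp1, a PGRMC1-binding protein, from 469 ± 28.1 to 323 ± 19.9 CPM (-0.54), both with all 11 PFNA libraries below every control. That position was reached by 14.1% of all genes tested. During maturation 0 were higher and 2 lower, Paqr6 (log2 fold change -2.76, limma adjusted p = 0.00045) and Paqr7 (-0.97, adjusted p = 0.00098). Paqr6 had 8.34 to 28.1 TPM in controls (median 22.1) and 0 to 26.8 TPM with PFNA (median 1.06), with 3 PFNA libraries listed at 0 and 8 of 10 below every control. All 10 oocyte markers were also lower in that window, and their part in the Paqr6 values was not tested.

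Other nuclear steroid receptors also changed in the ovulation window. Esr2, the estrogen receptor of granulosa cells, rose from 32 ± 7.82 to 78.5 ± 15.9 CPM (log2 fold change 1.29, 11 of 11 above every control). That position was reached by 11.9% of all genes tested. The glucocorticoid receptor Nr3c1 and the mineralocorticoid receptor Nr3c2, close relatives of PGR, were lower (-0.54 and -0.74). During maturation Nr3c1 (0.37) and Esr2 (0.31) were higher, though the Nr3c1 call was not made with replicate number as a block. The Esr2 call there was lost without control replicate 5, 6, 7, 10, 11 or 12 or PFNA replicate 1, 4, 5, 7, 9 or 10 (values 0.27 to 0.32, limma adjusted p 0.050 to 0.075).

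Of 11 co-regulators that work beside or against NRIP1, 10 were called lower and 0 higher in the ovulation window, where 35.2% and 38% of all genes were, with a median log2 fold change of -0.34. Med1, a Mediator subunit, fell from 76.6 ± 4.62 to 37.4 ± 7.17 CPM (-1.03) and Ctbp2, a co-repressor, from 105 ± 7.16 to 69.5 ± 4.40 CPM (-0.60), so Nrip1 rose while these fell. Of the same 11, 2 were called higher and 0 lower in the maturation window, where 13.3% and 16.1% of all genes were. The higher genes were Ncor1 (0.37, limma adjusted p = 0.032) and Ep300 (0.35, adjusted p = 0.049). The Ncor1 call was lost without PFNA replicate 6, 7 or 10 (values 0.31 to 0.35, adjusted p 0.054 to 0.062). That of Ep300 was lost without any of 17 libraries, all but control replicates 1 and 5 and PFNA replicates 1 and 2 (values 0.26 to 0.37, adjusted p 0.051 to 0.090).

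Chaperones that hold steroid receptors ready for hormone were called higher in the ovulation window in 6 of 9 cases and lower in 1 (38% and 35.2% over all genes). Hspa8 rose from 1676 ± 113 to 4799 ± 810 CPM (log2 fold change 1.52) and Hsp90aa1 by 1.23 on the log2 scale. Fkbp4, the co-chaperone that PGR needs for full activity, was the gene that fell, from 526 ± 106 to 272 ± 39.0 CPM (-0.95). During maturation 3 of 9 were higher and 4 lower, where 13.3% and 16.1% of all genes were. Among them were Dnajb1 at 0.85, Hspa8 at 0.27, Fkbp5 at -0.46 and Fkbp4 at -0.30.

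Of 13 SNARE partners of SNAP25 tested in the ovulation window, 3 were higher and 4 lower (38% and 35.2% over all genes, median log2 fold change -0.13). The complexin Cplx1 (1.62) and the calcium sensor Syt1 (1.5) rose at means of at most 7.95 CPM, while Vamp1 (-1.67) fell. Of 11 tested during maturation, Cplx2 was higher (0.76) and Napa lower (-0.13), where 13.3% and 16.1% of all genes were. The Napa call was lost without any of 13 libraries (control replicates 2, 3, 5, 6, 7, 8, 9 or 10, PFNA replicates 2, 3, 4, 5 or 6, limma adjusted p 0.052 to 0.073).

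Of 8 other genes of cyclic GMP signalling, the route that activates PRKG2, 7 were higher and 1 lower in the ovulation window (38% and 35.2% over all genes), with a median log2 fold change of 1.18. The higher genes did not all act one way, since they include the phosphodiesterases Pde2a (1.27) and Pde3a (0.66), named after their values were seen, which break down cyclic nucleotides. Npr2, the granulosa receptor for C-type natriuretic peptide, rose from 117 ± 12.8 to 386 ± 61.7 CPM (1.72), and its ligand Nppc from 10.4 ± 1.81 to 25.5 ± 7.52 CPM (1.29), both with all 11 PFNA libraries above every control. That position was reached by 11.9% of all genes tested. The phosphodiesterase Pde5a fell by 0.64 on the log2 scale. The same 3 genes were called in the opposite directions in the maturation window, Nppc at -0.78, Npr2 at -0.59 and Pde5a at 0.57 (limma adjusted p = 0.0049, 0.0066 and 0.0050), and the other 2 tested were not called. Over all genes of that window, 13.3% were called higher and 16.1% lower.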

How the data were processed

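RNA sequencing libraries of mouse ovarian follicles were compared within each window. Partek, Bowtie2 and HISAT2 are named in the submitters' processing notes, while their versions, roles and the genome build are not given in the sources used here. For the ovulation window the authors deposited a table of estimated counts, rounded here to integers (18.3% of values were not whole). The maturation table the authors deposited is named as raw counts but holds TPM, since each of its 21 libraries summed to 1000000. Because of this unit, limma replaced the count test in that window. Its gene positions are those of GENCODE M21 (GRCm38), with 98.9% of 22182 shared symbols at the same start and end.

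Titles linked the columns to samples. The leftover column CN6 was taken as maturation control replicate 6, titled CM6. The samples include no maturation control replicate 4, and 0 columns of per-sample values were left unused. No pair of libraries of a group was identical (lowest chi-square per degree of freedom 7.34 in the ovulation window, highest correlation 0.973 in the maturation window).

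Ovulation counts were tested with edgeR 4.0.16 in R 4.3.3 (filterByExpr, TMM, robust quasi-likelihood). For the maturation values limma 3.58.1 was fitted to log2(TPM + 1), with trend and robust settings, where a gene averaged 1 TPM or more. A fold change on this scale understates the change of low genes. The difference between windows used limma within each table and Satterthwaite's degrees of freedom. Benjamini-Hochberg adjusted p-values under 0.05 were called. Both fits were tested on simulated data. The members and gene lists were chosen with earlier results of these data known. Named were the members, every tested gene of the PGR-dependent list, per list and window the 2 genes higher and 2 lower with the smallest p, and the 5 genes most like Pgr. Some genes that met this rule are not reported here. CPM are the ovulation counts after TMM scaling. Exon length is the union of GENCODE M21 exons. Alternatives were median-ratio size factors, DESeq2 1.42.0, other filters and pseudocounts, a replicate block and leaving out libraries. Replicate numbers of the titles did not pair the libraries.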

Additional observations from a re-analysis of the deposited data

Results flagged for a closer look

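Among the 10 maturation PFNA libraries, the 7 genes and other named genes, 56 in all, were searched for a library that stood apart from its neighbour by a gap above Dixon's 95% limit. It was found for 9 genes, against 2.8 at 1 in 20 if values were normal and genes independent. Snap25, at 0 in most libraries, and the genes that share replicate 10 do not meet this, so the excess was not interpreted. Of the 7 progesterone-related genes the gap touched Snap25, at 0.00781 TPM in replicate 4 and at 0 in the other 9 libraries. In replicate 5, Adamts1 had 232 TPM (next library 162) and Egr1 4030.4 TPM (2162). In replicate 10, Dusp6 was at 117 TPM (next 78.4), Med1 at 26.2 (19.1), Pde5a at 6.85 (4.09), Runx1 at 1.84 (1.03) and Syt1 at 0.0811 (0.00735). Edn2 was at 2.30 TPM in replicate 6, with 1.22 next. The other groups, of more than 10 libraries, were not searched.

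PFNA effects that differed between windows (ovulation minus maturation on log2 scales, limma within each table) were 0.36 for Pgrmc1, 0.33 for Nrip1 and -0.44 for Pgrmc2. Pgrmc1 and Nrip1 were higher in 10 of 11 ovulation and 8 of 10 maturation PFNA libraries than in every control. Without maturation PFNA replicates 1 and 2 both differences were 0.25 (adjusted p = 0.090 and 0.10). Of the PGR-dependent genes, Ereg (-4.78), Areg (-3.30), Cxcr4 (-2.62), Ctsl (-0.80), Hif1a (0.72), Pparg (0.92) and Epas1 (1.52) differed too, with adjusted p from 7.1e-13 to 0.00043. Ereg was higher in maturation and lower in ovulation, and Hif1a the other way round, though its maturation call was lost when any 1 of 4 PFNA libraries was left out. Areg was lower in ovulation, and its higher value in maturation was not called under 18 of 26 alternatives (adjusted p = 0.066 with no filter on low values).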

How the results depend on the processing

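The calls of the 7 genes within each window, with their directions, held under each alternative run, apart from Pgr in the maturation window, which was tested only with no filter on low values and then called. Without maturation PFNA replicates 1 and 2 together, the difference between windows was 0.25 for Pgrmc1 and 0.25 for Nrip1, neither past the threshold, and 0 members instead of 2 were called higher. Leaving out each library in turn gave ovulation log2 fold changes of -4.17 to -3.67 for Pgr, -2.64 to -2.16 for Zbtb16, -2.71 to -2.39 for Snap25 and -2.83 to -2.52 for Prkg2, with 9654 to 10029 genes called in the ovulation and 3586 to 4588 in the maturation window. The replicate block, of numbers that do not pair the libraries (correlations of same-numbered deviations -0.193 to 0.0730 in the ovulation and -0.138 to 0.168 in the maturation window, where 1 of 9 pairs was closest to its own number), gave 9298 called genes in the ovulation window, 2891 in the maturation window and 7278 for the difference, and Pgr at -4.18. It changed no call of the 7 genes. The maturation calls of Ereg, Epas1, Nr3c1 and Areg were among those not made under it (limma adjusted p = 0.12, 0.078, 0.11 and 0.17). Of the 45 other named genes, 2181 of 2294 alternative values kept side and direction, 101 lost the call, 12 gained it and 0 reversed. Depth limits Zbtb16 and Snap25 with PFNA, which fell to 1 and 6 counts in a library.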
